A study of Mus musculus with 22 samples.

Results

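RNA was compared between mouse embryonic stem cells that made full-length DUX and cells that made DUX lacking the 14-residue tail at its end. The full-length group is FL (genotype mCherry-FL Dux) and the group without the tail is C12345delt14 (mCherry-C12345delt14aa Dux). The 4 libraries, 2 per group, were chosen by their labels and not by any measured value, and they are 4 of the 22 samples of the series. All groups used here were Dux-/- cells, so the only DUX was the mCherry-tagged form coded by a transgene. The cells were kept in 2iLIF, a medium that holds them in the naive state, and were given 24 hours to recover after plating. Doxycycline at 0.25 ug/mL then induced the transgene for 12 hours, after which 500 ng of total RNA went into each poly(A) library. Beside the 2 groups stood deltC12345+14, with the tail but without C12345, and deltC12345delt14, with neither. Also used were C3+14, which bears C3 and the tail, and mCherry, the red fluorescent protein with no DUX. What C12345 and C3 stand for is not written out in the labels. Neither do these give the promoter, the parent line, or whether a group is 1 clone or its replicates separate cultures. The p-values below therefore measure the spread between these libraries, which may be technical.

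DUX is a transcription factor with a pair of homeodomains, which bind DNA, and a C-terminal part through which it activates transcription. In mouse it is present for a short time when the embryo's own genome is first switched on at the 2-cell stage. Forced expression in embryonic stem cells switches on genes of that stage, among them the Zscan4 family, Zfp352, the Tcstv and Usp17-like genes, Obox homeobox genes, and many recently duplicated genes of unknown function. It also lowers genes that maintain pluripotency.

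The 2 FL libraries held 32168300 and 31391063 reads and the 2 C12345delt14 libraries 34777449 and 40448890. Levels below are normalised reads, that is reads divided by 1 size factor per library. One read was worth 1.81 and 1.49 normalised reads in FL and 1.14 and 0.820 in C12345delt14. Levels are not divided by gene length, so they are compared between libraries and not between genes. The replicates correlated across genes with Pearson's r of 0.977 in FL and 0.984 in C12345delt14. They lay over 2-fold apart at 17.4% of the 19833 genes tested in FL and at 12.2% in C12345delt14. The targeted gene gave no check, because Duxf3 and Gm4981, the annotated Dux copies, had 0 reads in all 4 libraries, and the level of the transgene was not analysed here. Whether the 2 forms of DUX were made in equal amounts is therefore not known from these values.

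C12345delt14 cells showed some genes of the 2-cell programme at a lower level than FL cells, and some immediate early, TGF-beta pathway and sterol genes at a higher level, among them Junb, Nodal and Hmgcs1. In the fit of all 8 libraries of the deletion constructs (limma, adjusted p under 0.05 and at least a 2-fold change), 190 of 19833 genes were called (0.958%). Of these, 67 were higher in C12345delt14 (0.338% of genes tested) and 123 were lower (0.620%). The split depended on scaling, with 50 higher and 58 lower under TMM and 205 and 229 under quantile normalisation. A fit of the 4 libraries alone called 1069 of 18442 genes (5.80%), of which 240 were higher (1.30%) and 829 lower (4.50%). Of the 190 genes of the first fit, 177 were also called in the second, and 156 were called alike by these fits and by edgeR and DESeq2 on the whole table, which called 2.35% and 6.52% of genes. All 190 had FL and C12345delt14 libraries that did not overlap, as did 56.3% of all genes tested. The calls of the whole-table fit needed all 4 libraries or gained without one: it called 0 genes without FL replicate 1, 0 without either C12345delt14 replicate, and 1392 without FL replicate 2. The unadjusted p was under 0.05 at 2785 genes without FL replicate 1, and at 4846 and 2428 without C12345delt14 replicates 1 and 2. With the 4 libraries alone, the calls were 785 and 2722 without FL replicates 1 and 2, and 1379 and 701 without C12345delt14 replicates 1 and 2. For a single value with 2 libraries against 2, the smallest p of an exact permutation test is 0.333.

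**Figure D1:**
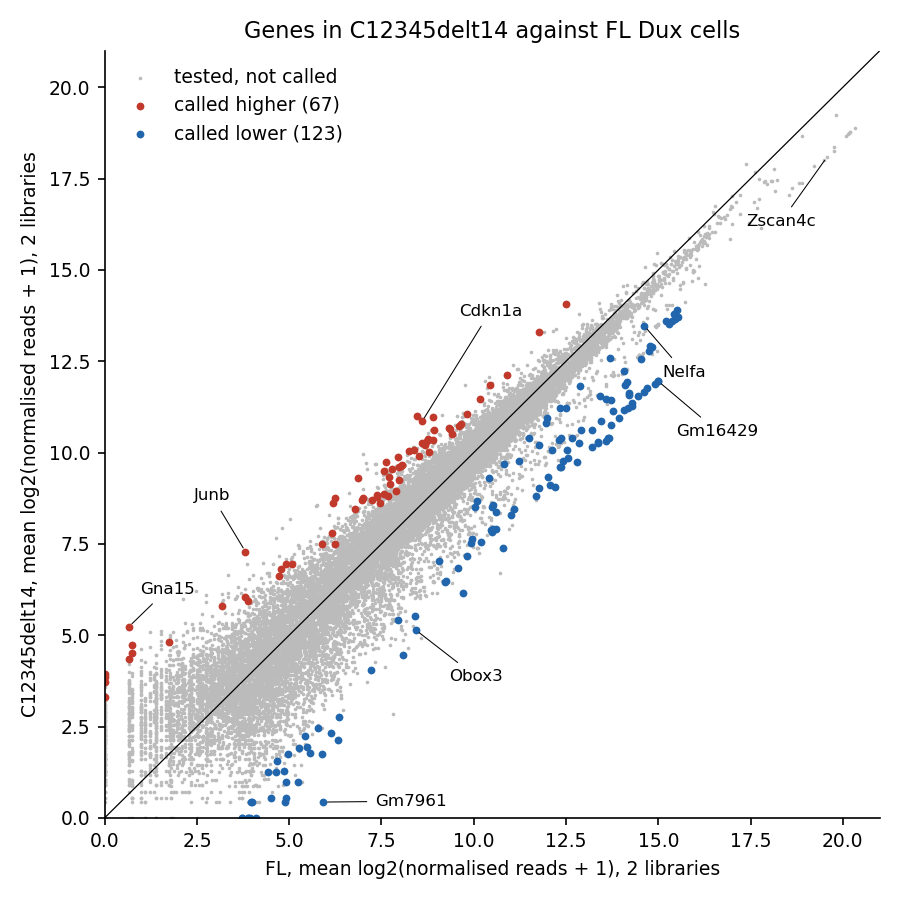
Each point is a gene, with its mean log2(normalised reads + 1) over the 2 FL libraries on the horizontal axis and over the 2 C12345delt14 libraries on the vertical axis, and the line marks equal levels. The 67 genes called higher lie above the line and the 123 called lower below it, while Zscan4c at the upper right lies below the line without being called.

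The 2 directions held different kinds of gene. Of the 67 higher genes, 60 were protein coding and 1 was a pseudogene. Of the 123 lower genes, 74 were protein coding and 40 were pseudogenes, and 14 lay on scaffolds outside the assembled chromosomes. At least 20% of the transcript sequence was shared with another gene in 6 of the 67 higher genes. Among the lower genes this held for 77 of the 109 with a value (70.6%), against 23.6% of all genes tested. Reads of such copies may have been split between them when the authors counted, so the values of single copies are uncertain. With only genes that share little sequence, the fit of all 8 libraries called 94 higher and 34 lower. The called lower genes took 2.18% and 2.11% of all reads in the FL libraries and 0.714% and 0.678% in the C12345delt14 libraries.

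A few immediate early genes, which cells switch on within minutes of a stimulus, rose without the tail. Junb codes for a subunit of the AP-1 transcription factor (ENSMUSG00000052837, chr8:84974484-84978718, minus strand, GRCm38). It measured 12.7 and 13.4 normalised reads in FL and 141 and 172 in C12345delt14. Both C12345delt14 libraries lay far above both FL libraries, though the groups also did not overlap at 56.3% of all genes tested. The log2 fold change was 3.48 ± 0.31 (SE, n = 2 per group), with an adjusted p of 0.0294 in limma's fit of all 8 libraries and 0.00146 in the 4 libraries alone. Klf10, a zinc finger gene induced by TGF-beta, measured 252 and 238 in FL and 702 and 1246 in C12345delt14. Zfp36, whose product destabilises short-lived mRNAs, measured 38.1 and 28.3 in FL and 113 and 132 in C12345delt14. Both rose, by 1.93 and 1.87 on the log2 scale (adjusted p = 0.0451 and 0.0467). Of the 26 tested members of the AP-1 and immediate early list, these 3 were called higher and 0 lower, and 9 had a negative log2 fold change. The list median was 0.96, beside -0.04 over all genes tested, of which 0.338% were called higher. In the 4 libraries alone 7 of 25 were called higher, adding Ier2, Dusp1, Ccn1 and Spry2, beside 1.30% of all genes tested there. Fos, the partner of the Jun proteins, was not called: it measured 67.0 and 70.0 in FL and 90.3 and 58.2 in C12345delt14. The lowest log2 fold change of the list was -2.16, of Atf3, which was not called either. Atf3 measured 21.7 and 22.3 in FL and 1.14 and 11.5 in C12345delt14.

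**Figure D2:**
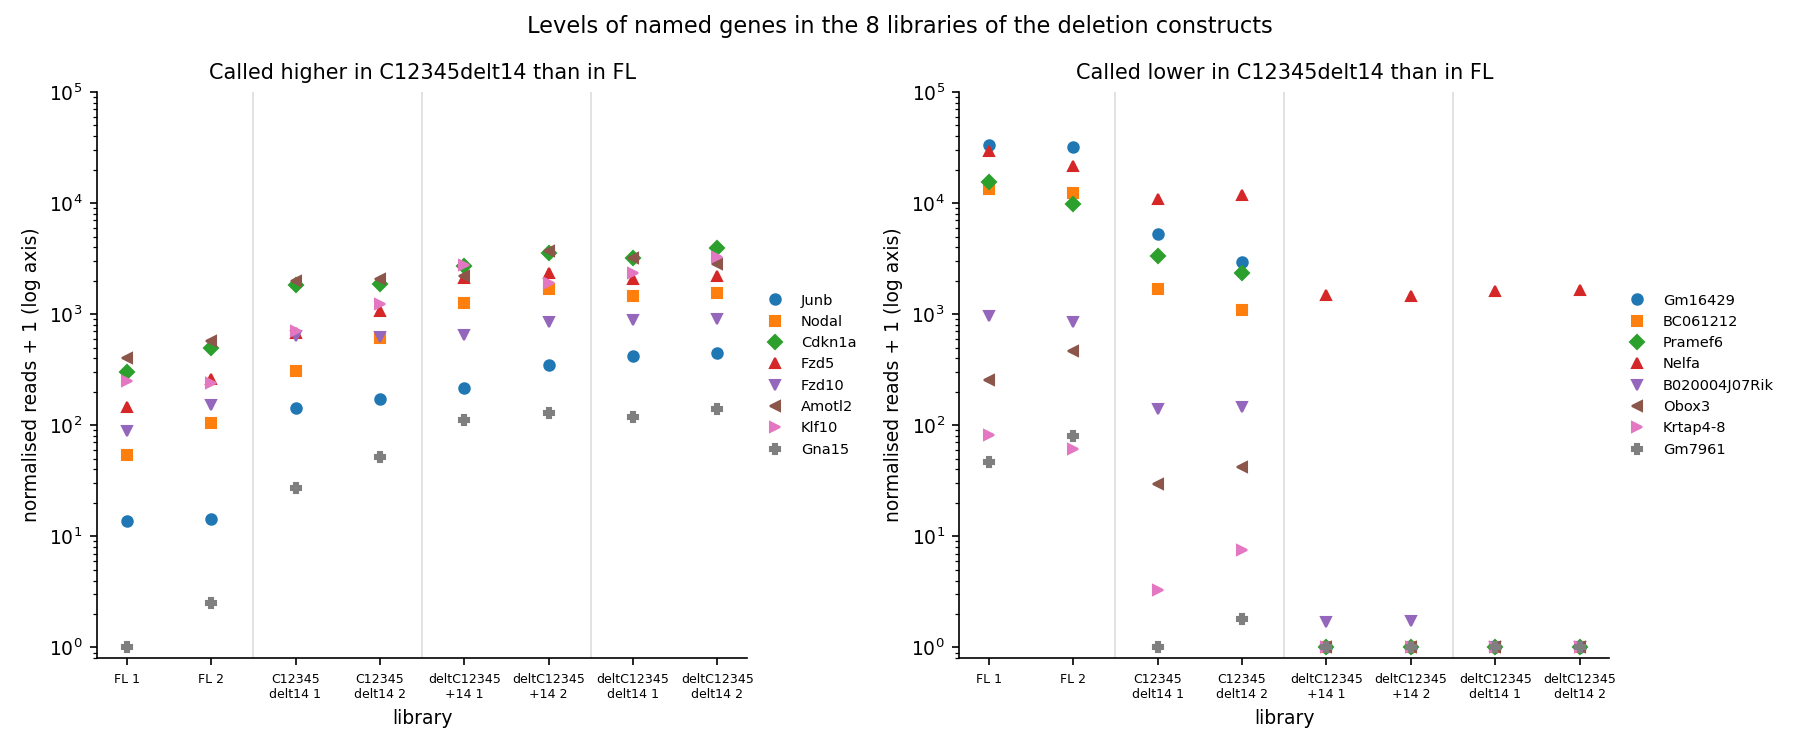
Normalised reads plus 1 on a log axis are plotted for 8 genes called higher (left) and 8 called lower (right) in each of the 8 libraries of the deletion constructs. Junb lies at 12.7 and 13.4 in FL and at 141 and 172 in C12345delt14, and Gm16429 at 33227 and 32095 in FL and at 5289 and 2976 in C12345delt14.

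Among genes of Nodal and TGF-beta signalling, 3 rose. Nodal, a secreted TGF-beta family ligand that embryonic stem cells make (ENSMUSG00000037171, chr10:61417972-61425338, plus strand), measured 52.6 and 104 in FL and 309 and 612 in C12345delt14. This was a log2 fold change of 2.54 ± 0.40 (SE), with an adjusted p of 0.045 in all 8 libraries and 0.00503 in the 4 alone. Ltbp3 codes for a protein that holds latent TGF-beta in the matrix, and it measured 5.44 and 11.9 in FL and 56.0 and 53.3 in C12345delt14. The nuclear corepressor gene Skil, a feedback inhibitor of SMAD proteins, measured 254 and 429 in FL and 1055 and 1109 in C12345delt14. For each of these genes the lowest C12345delt14 library lay above the highest FL library, as for all 67 genes called higher. The groups did not overlap at 56.3% of all genes tested, in either direction, so this adds nothing to the calls. Of 28 list members tested, these 3 were called higher and 0 lower, and 5 had a negative value. Among all genes tested 0.338% were called higher, and 10370 of 19833 had a negative value. The median log2 fold change was 0.69. Smad7, the inhibitory SMAD, was called only in the 4 libraries alone (log2 fold change 2.02, adjusted p = 0.0121). Bmp4 measured 7.25 and 2.98 in FL and 0 and 4.92 in C12345delt14 and was not called. Tgfb1, also not called, fell from 76.1 and 116 in FL to 41.2 and 43.5 in C12345delt14 (log2 fold change -1.13).

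Receptors and regulators of other signalling routes were among the genes with the largest rises. Fzd10 and Fzd5 code for Wnt receptors of the Frizzled family. Fzd10 measured 87.0 and 152 in FL and 636 and 621 in C12345delt14, a log2 fold change of 2.44 ± 0.27 (SE, adjusted p = 0.0294). Fzd5 measured 145 and 262 in FL and 681 and 1062 in C12345delt14, a log2 fold change of 2.12 ± 0.30 (SE, adjusted p = 0.0386). Counted over the family after values were seen, 3 of 10 tested Frizzled genes were called higher, the third being Fzd7 (log2 fold change 1.78, adjusted p = 0.0302), and 0 lower, with values from -0.31 to 2.44. Among all genes tested 0.338% were called higher. Amotl2, whose product binds the Hippo pathway effector YAP, measured 402 and 569 in FL and 1972 and 2058 in C12345delt14. Phf13, which codes for a reader of histone H3 methylation, measured 47.1 and 107 in FL and 311 and 497 in C12345delt14. Cdk5r2, an activator of the kinase CDK5, measured 16.3 and 10.4 in FL and 48.0 and 86.9 in C12345delt14. The groups did not overlap for any of these genes, which holds for all 190 called genes and 56.3% of all genes tested. It therefore adds nothing to the calls.

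Some of the largest relative rises began close to 0. Gna15, the gene of a G protein alpha subunit typical of blood cells, had 1 read in the 2 FL libraries together and 85 in the 2 C12345delt14 libraries. The ratio per normalised library was 49.7, with an exact counting interval of 8.67 to 1984. Cd22, a B cell lectin gene, had 3 reads in FL and 56 in C12345delt14, a ratio of 10.9 with an interval of 3.54 to 54.5. These intervals cover counting error only. In the 4 libraries without C12345, Gna15 lay between 112 and 138 normalised reads and Cd22 between 27.3 and 48.8, above their levels in both FL libraries.

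Some targets of p53 and genes of sterol supply rose as well. Cdkn1a, which codes for the cell cycle inhibitor p21 (ENSMUSG00000023067, chr17:29090976-29100727, plus strand), measured 303 and 494 in FL and 1836 and 1857 in C12345delt14. Its log2 fold change was 2.25 ± 0.25 (SE), with an adjusted p of 0.0294 in all 8 libraries and 0.000486 in the 4 alone. Tnfrsf10b, a death receptor gene, measured 250 and 225 in FL and 466 and 526 in C12345delt14. These were the 2 of 21 tested p53 targets called higher, 0 were lower, 3 had a negative value and the list median was 0.60. Mdm2, the p53 inhibitor and target, measured 1720 and 1915 in FL and 2739 and 2775 in C12345delt14 and was not called (adjusted p = 0.117). Hmgcs1, an early enzyme of cholesterol synthesis, measured 1645 and 2190 in FL and 3732 and 5384 in C12345delt14. Stard4, a carrier of sterols between membranes, measured 502 and 820 in FL and 1502 and 1785 in C12345delt14. Both were among the 3 of 20 list members called higher, with 0 lower, and 19 of the 20 had a positive log2 fold change, with a median of 0.70. In the 4 libraries alone 6 of 20 were called higher, adding Idi1, Sqle and Insig1. Over all genes tested 9463 of 19833 had a positive value. The share of all genes called higher was 0.338% in all 8 libraries and 1.30% in the 4 alone.

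Pluripotency genes were spread out, and none of 25 was called in all 8 libraries. The 4 libraries alone called 6 higher and 1 lower, beside 1.30% and 4.50% of all genes tested there. Sox2, a core pluripotency factor, measured 569 and 1300 in FL and 2555 and 5400 in C12345delt14. That is a log2 fold change of 2.11 ± 0.44 (SE), with an adjusted p of 0.0637 in all 8 libraries and 0.00907 in the 4 alone. Klf4, Esrrb, Tbx3, Nr5a2 and Fgf4 were the other genes called higher in the 4 libraries alone, by 1.21 to 2.62 on the log2 scale. Utf1, which codes for a chromatin factor of undifferentiated cells, was the gene called lower, at 2133 and 1374 in FL and 684 and 917 in C12345delt14. Nanog (log2 fold change 0.53, adjusted p = 0.275) and Zfp42 (0.65, 0.148) were not called. Pou5f1, which codes for OCT4, measured 23748 and 26037 in FL and 23758 and 23025 in C12345delt14, and its 95% interval for the log2 fold change ran from -0.43 to 0.26. The list median was 0.74. For Sox2, Klf4, Esrrb and Tbx3 the second C12345delt14 library lay above the first, and the second FL library above the first.

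Of the 123 lower genes, 66 lay in 6 clusters along the genome, many of them copies of one another. The largest spanned chr5:93924777-95746617, where 23 of 38 tested genes were called lower in all 8 libraries and 37 in the 4 alone. Its 23 called genes took 0.566% and 0.639% of reads in FL and 0.137% and 0.104% in C12345delt14, and 0 reads in the 4 libraries without C12345. Gm16429 (ENSMUSG00000096230, chr5:93924777-93929052, minus strand) measured 33227 and 32095 in FL and 5289 and 2976 in C12345delt14. On the log2 scale the change was -3.04 ± 0.33 (SE), with an adjusted p of 0.0294 in all 8 libraries and 8.92e-05 in the 4 alone. BC061212 measured 13464 and 12289 in FL and 1675 and 1079 in C12345delt14, and Gm7978 13473 and 12275 in FL and 1661 and 1095 in C12345delt14. The near-equal values of these copies are an example of genes whose reads cannot be assigned to 1 copy with certainty. Gm7961, an annotated copy nearby, had 1 read in the 2 C12345delt14 libraries and 78 in the 2 FL libraries, a ratio of 134 with an exact counting interval of 23.3 to 5341. Of the 10 coding genes with the largest falls among those with a mean of at least 50, 5 lay on scaffolds outside the assembled chromosomes. Whether these are separate from the chromosome 5 cluster was not tested.

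A cluster at chr10:100330540-100382560 held 10 called genes of 11 tested, all 11 called in the 4 libraries alone. Its 10 genes called in all 8 libraries took 0.813% and 0.662% of reads in FL and 0.317% and 0.305% in C12345delt14. The promoters of its copies show how alike they are. The windows below, from RefSeq (GRCm38.p6), run from 250 bases before to 50 bases after the annotated start. Gm4303 (chr10:100345722-100346021, plus strand), Gm4305 and Gm4307 share the first to the last base, and so do Gm4301 (chr10:100335426-100335725, plus strand) and Gm4312. No letters are in capitals because neither window holds the motif described further down.
Gm4303: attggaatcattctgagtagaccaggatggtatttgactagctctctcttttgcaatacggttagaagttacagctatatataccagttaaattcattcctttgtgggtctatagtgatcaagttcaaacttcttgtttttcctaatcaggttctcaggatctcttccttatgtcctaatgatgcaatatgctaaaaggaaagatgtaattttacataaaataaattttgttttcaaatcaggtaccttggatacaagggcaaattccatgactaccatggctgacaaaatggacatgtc
Gm4301: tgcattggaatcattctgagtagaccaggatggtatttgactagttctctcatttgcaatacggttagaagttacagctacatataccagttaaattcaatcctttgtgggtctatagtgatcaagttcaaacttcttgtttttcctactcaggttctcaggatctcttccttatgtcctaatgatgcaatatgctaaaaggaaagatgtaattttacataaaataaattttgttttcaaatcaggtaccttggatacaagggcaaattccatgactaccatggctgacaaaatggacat
Gm4303 measured 52745 and 34101 in FL and 13826 and 11055 in C12345delt14, with an adjusted p of 0.0452. Gm4301 measured 56201 and 38349 in FL and 17187 and 13585 in C12345delt14, with an adjusted p of 0.0487. Both genes had all of their sampled transcript sequence in common with other genes. Further clusters lay at chr10:118238372-118354105 with 5 called of 10 tested, and at chr3:93068823-94266784 with 11 of 36. On chromosome 7 they lay at chr7:14694074-15759800 with 10 of 37, and at chr7:20724525-22899614 with 7 of 16. No gene in these 6 spans was called higher. The spans were drawn around called lower genes, and only 0.338% of all genes tested were called higher, so this 0 says little.

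**Figure D3:**
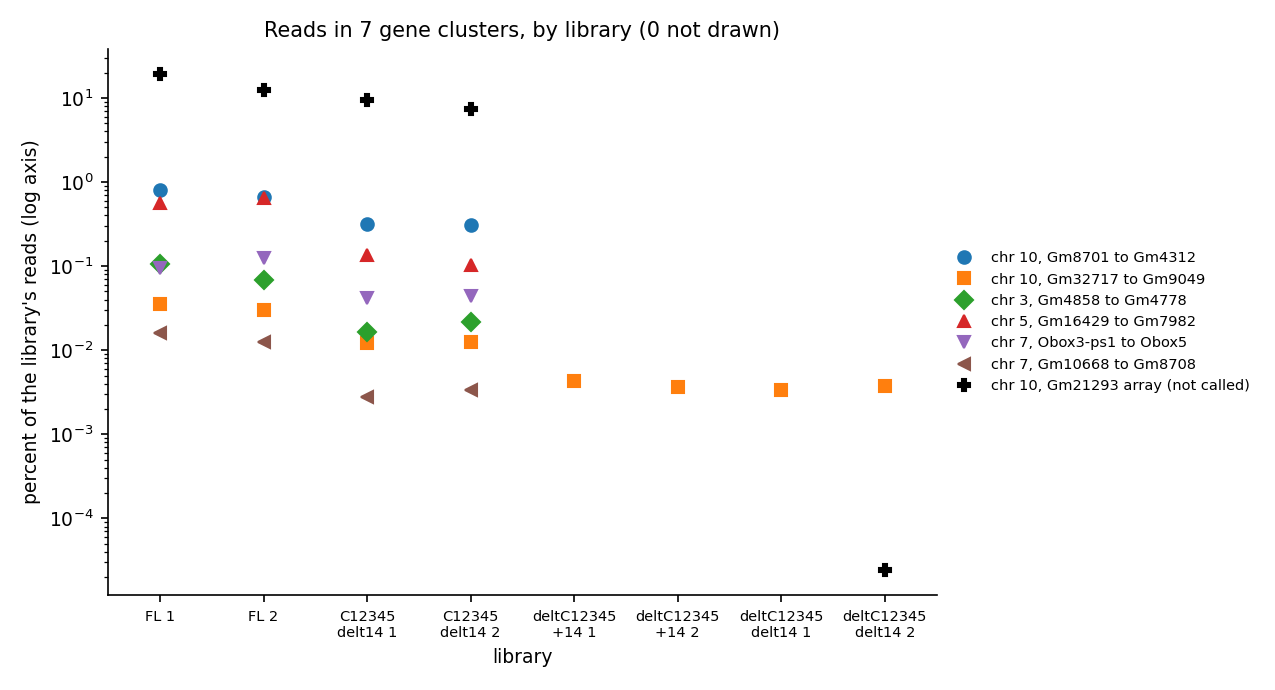
The percent of each library's reads in 6 clusters of called lower genes and in the uncalled chromosome 10 array is plotted on a log axis, with values of 0 not drawn. In each of the 7, both C12345delt14 libraries lie below both FL libraries. For the 6 clusters only the called lower genes are summed, so this direction follows from their choice. For the chromosome 5 cluster the values go from 0.566% and 0.639% to 0.137% and 0.104%.

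Homeobox genes of the Obox family, which are expressed in oocytes and early embryos, filled the first of the chromosome 7 spans. Obox3 (ENSMUSG00000066772, chr7:15479825-15639902, minus strand) measured 254 and 468 in FL and 28.6 and 41.0 in C12345delt14. The change was -3.29 ± 0.54 on the log2 scale (SE, adjusted p = 0.0452). Obox5 also fell, from 27.2 and 52.1 to 2.29 and 3.28, and Obox1 was called only in the 4 libraries alone. Of 6 coding members, 2 were called lower and 0 higher in all 8 libraries, and of 34 pseudogenes 7 were lower and 0 higher. In the 4 libraries alone 3 and 31 were called lower. The share of all genes called lower was 0.620% in all 8 libraries and 4.50% in the 4 alone. The pseudogenes included Obox3-ps5, at 65.2 and 96.8 in FL and 2.29 and 4.92 in C12345delt14, and Obox3-ps1, at 67.0 and 50.6 in FL and 2.29 and 2.46 in C12345delt14. Obox3 overlaps Obox1 and several pseudogenes in the annotation, so its reads may include theirs. Krtap4-8, a keratin-associated protein gene on chromosome 11, measured 81.5 and 59.6 in FL and 2.29 and 6.56 in C12345delt14. Its log2 fold change of -3.83 ± 0.61 (SE, adjusted p = 0.0451) was the largest among coding genes with a mean of at least 50.

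Of 42 marker genes of the 2-cell stage, 3 were called lower and 0 higher in all 8 libraries, and 21 of 41 were lower in the 4 libraries alone. The share of all genes called lower was 0.620% in all 8 libraries and 4.50% in the 4 alone. The median log2 fold change was -1.20, and 41 of 42 values were negative, beside 10370 of 19833 over all genes tested. Nelfa, a subunit of the negative elongation factor that marks 2-cell-like cells (ENSMUSG00000029111, chr5:33897916-33936413, minus strand), measured 29293 and 21596 in FL and 10942 and 11777 in C12345delt14. That is a change of -1.15 ± 0.16 on the log2 scale (SE, adjusted p = 0.0369). It overlaps Nsd2 in the annotation. Pramef6, of the PRAME family of leucine-rich repeat proteins, measured 15401 and 9847 in FL and 3369 and 2364 in C12345delt14 (adjusted p = 0.0479). B020004J07Rik measured 966 and 855 in FL and 139 and 146 in C12345delt14 (adjusted p = 0.045). The remaining 39 markers were not called in all 8 libraries. Zfp352, a zinc finger gene of the 2-cell embryo, measured 9573 and 5797 in FL and 2949 and 2315 in C12345delt14, with an adjusted p of 0.0778 in all 8 libraries and 0.00455 in the 4 alone. Tcstv3 measured 56157 and 18528 in FL and 8611 and 5779 in C12345delt14, and Tcstv1 4016 and 1059 in FL and 463 and 256 in C12345delt14. Both were called in the 4 libraries alone (adjusted p = 0.0096 and 0.0108) and not in all 8 (0.0692 and 0.0823). Of the 6 Usp17-like deubiquitinase genes, 4 were called lower in the 4 libraries alone, among them Usp17lc at 26814 and 19260 in FL and 10832 and 9500 in C12345delt14. Duxbl1, a DUX relative, measured 2764 and 2516 in FL and 2098 and 2027 in C12345delt14 and was not called (adjusted p = 0.612).

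The Zscan4 genes had lower values in both C12345delt14 libraries without passing the test in all 8. They code for zinc finger proteins that act at telomeres in 2-cell-like cells. Zscan4c (ENSMUSG00000054272, chr7:11005745-11010547, plus strand) measured 1042939 and 582026 in FL and 350121 and 222366 in C12345delt14. Its log2 fold change was -1.48 ± 0.61 (SE), with an adjusted p of 0.183 in all 8 libraries and 0.0652 in the 4 alone. The SE in all 8 libraries also depends on the 4 libraries without C12345. Zscan4c had a few reads in 1 of these, while Zscan4d had 0 in all 4 and an SE of 0.33. Zscan4d measured 527214 and 280341 in FL and 173837 and 105818 in C12345delt14, and was called in the 4 libraries alone (adjusted p = 0.0453) but not in all 8 (0.0666). All 9 Zscan4 genes and pseudogenes were lower, with values between -1.63 and -1.38 and a median of -1.48. None was called in all 8 libraries and 3 in the 4 alone, where 4.50% of all genes tested were called lower. All 9 share sequence with each other or with other genes, and quantile normalisation moved the median to -0.37. In the 4 libraries without C12345 the highest value of Zscan4c was 3.28, so both FL and C12345delt14 cells expressed the family far above these libraries. An array of 7 genes at chr10:104142987-104196522 took 19.2% and 12.3% of all reads in FL and 9.42% and 7.34% in C12345delt14. Its genes had adjusted p values of 0.0891 or more in all 8 libraries and were not called.

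The promoter of Zscan4c is shown because it holds letters of the motif that DUX is known to bind. The window is chr7:11005495-11005794, plus strand, from RefSeq (GRCm38.p6), and the capitals mark a match to TGATTNAAT.
Zscan4c: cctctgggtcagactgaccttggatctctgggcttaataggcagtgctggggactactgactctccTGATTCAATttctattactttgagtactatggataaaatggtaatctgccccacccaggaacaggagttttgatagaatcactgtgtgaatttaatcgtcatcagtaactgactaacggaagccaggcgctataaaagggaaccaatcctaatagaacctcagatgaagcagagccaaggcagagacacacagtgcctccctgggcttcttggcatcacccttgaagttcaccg
On either strand, TGATTNAAT was in 0.718% of 32851 promoter windows. A longer form of the motif that begins with the same letters was in 0.0335% of them and in 0 of those of the called genes, of which 37 lower and 53 higher genes matched a window. The shorter form was chosen after values were seen. It occurred in 3 of 4 Zscan4 windows, in 1 of 40 windows of called lower genes, that of Oog2, and in 0 of 65 of called higher genes. Only 4 of the 9 Zscan4 genes and pseudogenes matched a window. As windows of related copies, these do not count as independent. A match is a description of letters, and windows without one say nothing of DUX binding elsewhere.

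Some lower genes were single-copy genes with a known function, named here after their values were seen. Atf2, a transcription factor of the CREB family, measured 6482 and 5078 in FL and 2487 and 2296 in C12345delt14 (log2 fold change -1.26, adjusted p = 0.031). Fundc1, a mitochondrial receptor for mitophagy, measured 4316 and 2774 in FL and 1171 and 1177 in C12345delt14 (-1.56, 0.042). Spesp1, which codes for a sperm equatorial segment protein, measured 2602 and 2234 in FL and 789 and 956 in C12345delt14 (-1.47, 0.046). The groups did not overlap for these genes, as for all 123 genes called lower and 56.3% of all genes tested. Unc13d, Stox1, Cep57l1, Vamp3, Myo1e, Scamp1, Uimc1 and Eapp were called as well, with log2 fold changes between -2.25 and -1.03. Vamp3, Scamp1 and Unc13d code for proteins of vesicle traffic and secretion. Several named genes overlap another gene, among them Junb and Ltbp3. Since the sources do not say whether the counting used strand, their reads may include those of the partner.

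None of 18 integrated stress response genes, 16 heat shock genes, 20 repressors of the 2-cell state, 20 coactivator and remodelling genes, 18 glycolysis genes and 24 cell cycle genes was called in all 8 libraries. Only 0.958% of all genes tested were called in either direction, so 0 calls in lists of this size say little. The 4 libraries alone called Ddit4 of the stress list, Cdkn1b of the cell cycle list, and Hk2, Slc2a1 and Pdk1 of the glycolysis list, all higher. The glycolysis median was 0.39, with 15 of 18 values positive, and the stress and coactivator medians were 0.09 and 0.10. The heat shock, repressor and cell cycle medians were -0.18, -0.04 and -0.12, and their signs turned or came near 0 under other scalings. Among the abundant members, Hsp90ab1 measured 194945 and 211823 in FL and 230609 and 189265 in C12345delt14. Trim28, a corepressor of transposons and of the 2-cell programme, measured 79430 and 72903 in FL and 61027 and 48947 in C12345delt14, with an adjusted p of 0.123. The catalytic remodeller subunits Smarca4 and Chd4 had 95% intervals for the log2 fold change of -0.54 to 0.06 and -0.58 to 0.14. These intervals lie inside 2-fold in both directions.

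**Figure D4:**
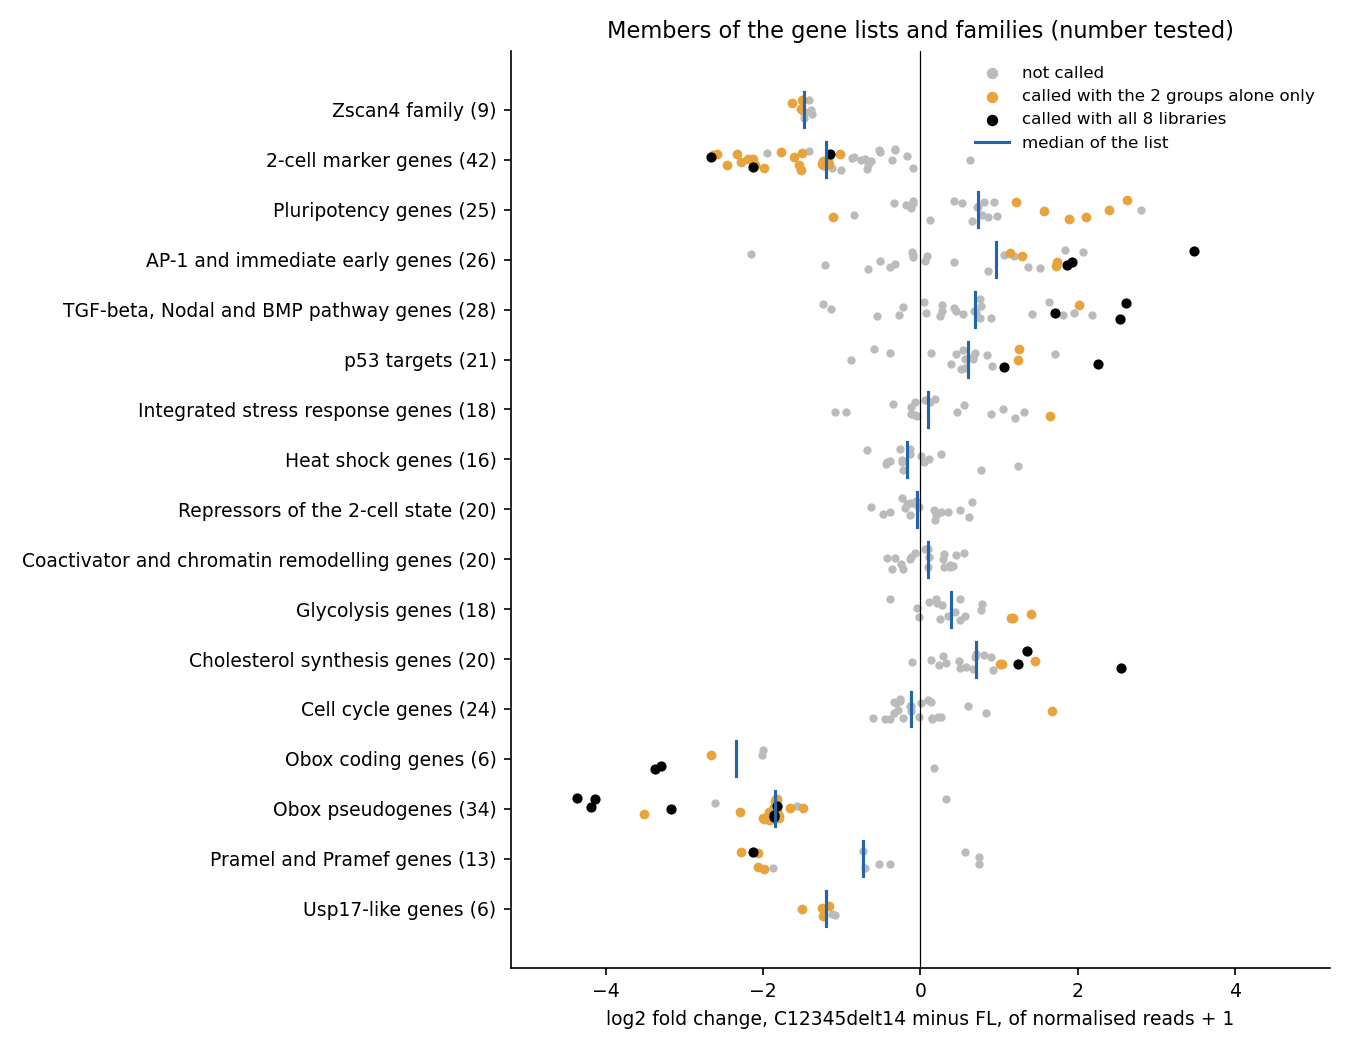
Each point is a tested member of a list or family, placed by its log2 fold change (C12345delt14 minus FL) with small vertical scatter for legibility, and the blue bars are list medians. Black points passed the test in all 8 libraries, such as Junb at 3.48, and orange points in the 4 libraries alone, among them most Obox pseudogenes near their median of -1.85.

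Markers of other cell types gave 0 calls in all 8 libraries, over 8 trophectoderm, 10 primitive endoderm, 9 primed epiblast and 6 fibroblast genes tested. With 0.958% of all genes called, this 0 says little. Summed over each list, trophectoderm markers were at 1763 and 1605 normalised reads in FL and 1531 and 2247 in C12345delt14. Primitive endoderm markers summed to 12429 and 15812 in FL and 14653 and 11021 in C12345delt14, and primed epiblast markers to 4887 and 3992 in FL and 3657 and 4034 in C12345delt14. Fibroblast markers summed to 643 and 527 in FL and 533 and 512 in C12345delt14, with Dcn and S100a4 at 0, and Sox7 of the endoderm list was at 0. The groups overlapped in each of these 4 sums. All 7 embryonic stem cell markers were detected, summing to 42586 and 57228 in FL and 55615 and 75142 in C12345delt14, which also overlapped. Krt8 of the trophectoderm list was called lower in the 4 libraries alone, at 578 and 448 in FL and 270 and 221 in C12345delt14. In such bulk samples fewer responding cells and less RNA per cell cannot be told apart. Genes with highly repeated sequence took 2.07% and 1.91% of reads in FL and 2.28% and 2.07% in C12345delt14.

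A further measure came from genes that moved in C3+14 cells, whose libraries were not used in the comparison of C12345delt14 with FL. Against mCherry alone, C3+14 had 6391 of 21584 genes higher (29.6% of genes tested) and 3814 lower (17.7%). The fit behind these calls took its estimate of the spread from all 14 libraries of that table, which include the FL libraries. Of these genes, 5088 higher and 3700 lower ones were tested in the deletion constructs. Each library was summarised by its median log2 difference from the mean of the FL libraries. Over the higher set this median was -0.26 and -0.68 in the C12345delt14 libraries, a mean of -0.47 ± 0.29 (SD, n = 2), while the FL libraries lay at 0.06 and -0.06. Over the lower set it was 0.19 and 0.59, a mean of 0.39 ± 0.28 (SD, n = 2), while the FL libraries lay at -0.07 and 0.07. The libraries without C12345 were between -2.02 and -1.53 and between 1.29 and 1.44. All genes tested had medians of -0.02 and -0.04 in C12345delt14. Both C12345delt14 libraries thus lay on the side of the libraries without C12345, the second further than the first.

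**Figure D5:**
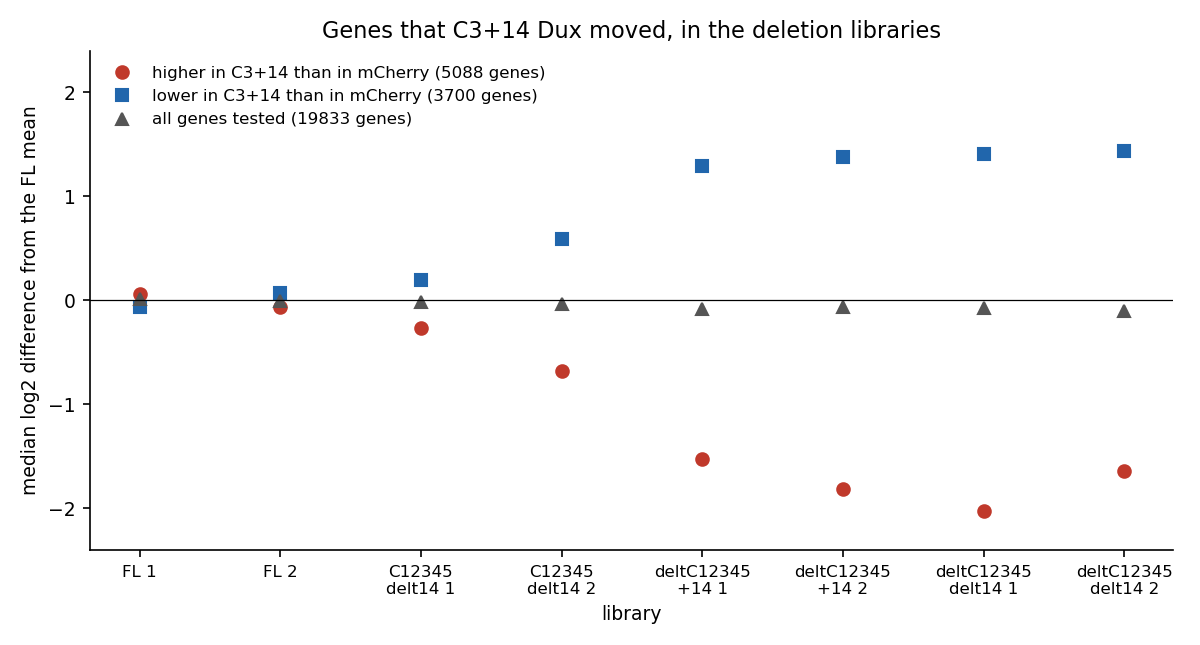
Points are medians of the log2 difference from the FL mean in each of the 8 libraries, over genes higher in C3+14 than in mCherry, genes lower, and all genes tested. The C12345delt14 libraries lie at -0.26 and -0.68 for the first set and 0.19 and 0.59 for the second, between the FL libraries and the 4 libraries without C12345.

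Gene by gene, 73.7% of the higher C3+14 set had a negative log2 fold change in C12345delt14 against FL, beside 52.3% of all genes tested. Of the lower set 74.9% had a positive one, beside 47.7% of all genes tested. Of the 5088 higher genes, 2.24% were called lower in all 8 libraries, beside 0.620% of all genes tested, and 7 genes were called higher. Of the 3700 lower genes, 28 were called higher (0.757%, beside 0.338%) and 0 lower. Seen from the other list, 92.7% of the 123 genes lower in C12345delt14 were in the higher C3+14 set, which holds 25.7% of genes tested. However, 97 of these 123 had at most 3 reads in every library without C12345. Those genes entered the test through FL and C12345delt14, so a place among genes raised by DUX largely follows from that. Neither this share nor the 2.24% is therefore independent support. Of the 67 higher genes, 41.8% were in the lower C3+14 set, which holds 18.7%, and 7 were in the higher set.

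The constructs without C12345 give levels to set beside these, and they share the FL libraries with the comparison above. Junb measured 217 and 346 in deltC12345+14 and 419 and 450 in deltC12345delt14. Nodal measured 1249 and 1697 in deltC12345+14 and 1446 and 1538 in deltC12345delt14, and Sox2 8424 and 5761 in deltC12345+14 and 7999 and 7649 in deltC12345delt14. For these 3 genes the C12345delt14 libraries lay between FL and every library without C12345. Fzd10 measured 642 and 847 in deltC12345+14 and 893 and 906 in deltC12345delt14, close to its 636 and 621 in C12345delt14. Gm16429, BC061212, Obox3, Pramef6 and Zfp352 had 0 reads in all 4 libraries without C12345, so their level in C12345delt14 was lower than in FL but far from absent. Nelfa measured 1473 and 1455 in deltC12345+14 and 1610 and 1642 in deltC12345delt14. Not every called gene lay between: Stk35, a kinase gene named after its values were seen, had a mean log2 level of 10.5 in C12345delt14, above both FL (9.40) and the constructs without C12345 (10.3).

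Whether the effect of the tail depends on C12345 was tested as an interaction in the fit of all 8 libraries. limma called 0 of 19833 genes (0.00%) and had 2748 genes at an unadjusted p under 0.05, edgeR called 0 with 2232 such genes, and DESeq2 called 146 (0.736%). For genes silent without C12345 the interaction equals the difference between C12345delt14 and FL, as for Gm16429 (-3.04 in both). Of the 123 lower genes, 97 had at most 3 reads in every library without C12345. A tail effect without C12345 cannot be measured for these, so the 0 calls do not show that it is independent of C12345. In these constructs 1 library of each group without C12345 had under 0.45% of its reads in highly repeated genes, against 2.31% and 2.59% in the others. Without those 2 libraries, the comparison of C12345delt14 with FL called 59 genes higher and 233 lower.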

How the data were processed

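Poly(A) RNA was sequenced in 4 libraries, 2 of FL and 2 of C12345delt14, and set beside other libraries of the series. The deposited values are a signal: per the file headers they are normalised counts, and 100% of 1220714 values were whole multiples of 1 step per library (tolerance 0.02 reads), so whole reads were recovered. The submitters' processing notes name Trim Galore 0.5.0, FastQC, DESeq2 and the build mm10. The aligner, the counting program and how multiply matching reads were handled are not given in the sources used here. Both tables list 55487 genes, and GENCODE M21 (GRCm38) gave a symbol and coordinates to 99.5% of them. C3delt14 was not analysed here.

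The main test was limma 3.58.1 (R 4.3.3, lmFit and eBayes with a trend) on log2(value + 1), over all 8 libraries of the deletion table, for genes that reached 10 in 2 or more libraries. Calls needed a 2-fold change (1 on the log2 scale) and a Benjamini-Hochberg adjusted p under 0.05. Such fold changes understate the change of low genes. The spread in this fit is also estimated from the libraries without C12345. In each of those, 97 of the 123 lower genes had at most 3 reads. There values of 0 add no spread and single stray reads add much. The same test on the 4 libraries alone, edgeR 4.0.16 (quasi-likelihood) and DESeq2 1.42.0 on the recovered reads, other scalings, pseudocounts and filters, a replicate block and leaving out each replicate were alternatives. Scripts were tested on simulated data. Shared sequence is the percent of 50-base stretches, taken every 10 bases of a gene's transcripts, that occur in another gene, with 20% or more counted as shared. Highly repeated genes are the 1657 in which most stretches occur in at least 20 genes. Clusters are at least 4 called lower genes with gaps of at most 1000000 bases.

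The comparison, the gene lists and the rule for named genes were chosen with earlier results of these data known. Named were 14 genes of those results, per direction the 10 coding and 3 other called genes with the largest change (mean of at least 50, no overlap of groups), called list members, or the 2 most abundant where none was called, and up to 5 coding genes per direction called by all 4 fits. Some genes that meet this rule are not reported here.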

Additional observations from a re-analysis of the deposited data

How the results depend on the processing

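The comparison of C12345delt14 with FL called 67 genes higher and 123 lower in the fit of all 8 libraries. Higher and lower counts fell to 23 and 7 with a pseudocount of 0.1, to 6 and 24 with no filter, to 50 and 58 with TMM scaling and to 22 and 23 with a replicate block. They rose to 304 and 868 with a pseudocount of 8, 109 and 205 with a minimum of 50, 205 and 229 with quantile normalisation, 180 and 287 with edgeR and 536 and 757 with DESeq2. Among genes without shared sequence they were 94 and 34. Leaving out 1 replicate gave 0 to 879 higher and 0 to 513 lower, with 0 calls without either C12345delt14 replicate or FL replicate 1. The 4 libraries alone gave 240 and 829 with limma, 267 and 782 with edgeR, 469 and 901 with DESeq2 and 633 and 1195 with a replicate block. Alternatives chosen after seeing the data left out 1 of these 4, with 202 and 583 (FL replicate 1), 1344 and 1378 (FL replicate 2), 425 and 954 (C12345delt14 replicate 1) and 81 and 620 (C12345delt14 replicate 2), or the 2 libraries without C12345 that had few repeated reads, with 59 and 233. The causes were not tested. TMM moved the median log2 fold change of all genes from -0.04 to 0.08. Same-numbered FL and C12345delt14 libraries deviated together with a correlation of 0.14, and nothing in the labels pairs them, so the block is an alternative only. The interaction had 0 calls under every limma setting and under edgeR, and 146 with DESeq2. The medians over the C3+14 sets kept their sign in all alternatives run. Of 61 named genes, the 36 called ones kept their direction. Of the others, quantile normalisation turned Pou5f1 (0.31), Dppa5a (0.25), Asns (0.057), Psat1 (0.30), Hspa8 (0.32), Ncl (0.0015), Chd4 (0.19), Smarca4 (0.13), Gapdh (0.34), Mcm5 (0.037) and Mcm7 (0.12) to positive values. Pou5f1 and Psat1 also turned with TMM (0.038 and 0.053), and Psat1 with edgeR (0.016). Without 1 replicate, Psat1 ranged from -0.17 to 0.028, positive without C12345delt14 replicate 2, and Hsp90ab1 from -0.10 without C12345delt14 replicate 1 to 0.18, with -0.020 without FL replicate 1. Depth limits the genes near 0, such as Gna15 and Gm7961.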
